A study of Rattus norvegicus with 24 samples.

Results

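The miR-181 family was followed in rat serum through its 4 mature 5p members, rno-miR-181a-5p, rno-miR-181b-5p, rno-miR-181c-5p and rno-miR-181d-5p, written below without the prefix for rat. The rule selects them by name and uses no measured value, but the family was taken up with earlier results of these data known, which bears on every p-value below. They are 4 of the 753 miRNA names and 6 of the 832 miRNA loci in the deposited tables. Small RNA was sequenced from serum of male Wistar Kyoto rats, 1 library per rat, in a design that crossed diet with exposure. All rats came to the facility at 4 weeks of age and were then fed for 8 weeks, on the facility's normal chow or on a custom diet with fish oil added at 6% of its weight. They then breathed filtered air or 0.8 ppm ozone (0.8045 ppm as measured) for 4 h on each of 2 days. Blood was drawn from the abdominal aorta. The 4 groups were normal diet in air (6 libraries), normal diet in ozone (6), fish oil in air (6) and fish oil in ozone (5; replicate 2 was not analysed here).

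Rats were housed in pairs, and the labels do not say which rats shared a cage. The p-values below therefore measure the spread between these rats. They treat each rat as independent and may be too small if cage mates were alike. Diets with other oils were not analysed here, so added fish oil cannot be told apart from any other difference between the diets. A library is called by its diet, exposure and replicate number, as in fish oil air 3.

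A miRNA guides silencing complexes to messages that pair with its seed, the bases just after its first 5′ base, so members of a family with 1 seed share many possible targets. The miR-181 family is best known from lymphocytes, where miR-181a tunes the response of the T cell receptor, and from vascular endothelium, where miR-181b restrains inflammatory signalling. The family is made from 3 paired clusters: each a gene lies beside a b gene at 2 places in the genome, and the c gene lies beside the d gene at another.

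The mature sequences decide how far reads of the members can be told apart, and they are printed 5′ to 3′ with the seed (bases 2 to 8) in capitals. All 4 members were matched by name in the RefSeq table of build GRCr8.
miR-181a-5p: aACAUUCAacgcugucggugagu
miR-181b-5p: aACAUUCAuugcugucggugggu
miR-181c-5p: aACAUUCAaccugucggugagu
miR-181d-5p: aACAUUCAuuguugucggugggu

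All 4 carried the seed ACAUUCA, and no other of the 693 mature names in that RefSeq table did. Outside the seed the nearest sequences did not lie in the same cluster. MiR-181b-5p and miR-181d-5p differed by 1 substitution, C12U, with positions counted from 1 at the 5′ end and the base of miR-181b-5p first. MiR-181c-5p, at 22 bases against 23 for the others, was miR-181a-5p without its base 11. By contrast miR-181a-5p and miR-181b-5p, which share their clusters, differed by A9U, C10U and A21G. The cluster partners miR-181c-5p and miR-181d-5p were 5 edits apart, the most of the 6 pairs. Whether mismatches were allowed when reads were placed is not given in the sources used here, so the split of reads between miR-181b-5p and miR-181d-5p rests on that 1 base.

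The positions are those of the files, on build rn5; whether the files number bases from 0 or from 1 is not stated in them. On chromosome 13, miR-181a-5p was placed at chr13:59986089-59986112 and miR-181b-5p at chr13:59986271-59986294, 182 bases apart from start to start. In the RefSeq annotation of GRCr8 these genes overlap the long non-coding RNA LOC108352541, and the next protein-coding gene is Ptprc, which encodes the leukocyte antigen CD45. On chromosome 3, miR-181a-5p was placed at chr3:28374807-28374830 and miR-181b-5p at chr3:28375886-28375909, 1079 bases apart, in genes that lie within the protein-coding gene Nr6a1. On chromosome 19, miR-181d-5p was placed at chr19:36267201-36267224 and miR-181c-5p at chr19:36267372-36267394, 171 bases apart, overlapping no other annotated gene and next to Nanos3.

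Reads of the a and b members could not be assigned to 1 of their clusters. The chromosome 13 locus held 49.8% of all miR-181a-5p counts (45.9 to 54.6% across the 23 libraries) and 49.9% of all miR-181b-5p counts (37.5 to 61.5%). Since both loci give the same mature sequence, loci of 1 name were summed, and the a/b clusters are treated below as 1 unit. The c/d cluster is represented by miR-181c-5p and miR-181d-5p, each with a single locus.

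The libraries held between 23279 and 94264 miRNA counts. A count of 3, the lowest taken as different from 0, was worth 28.3 to 117 CPM, counts scaled to a common library size. That size was set by TMM, a trimmed mean of log ratios between libraries, which assumes that most miRNAs do not shift. Such floors cover counting error only, because PCR copies without molecular identifiers are not independent molecules. Over all libraries miR-181a-5p ranked 32 of the 440 names with counts, with 6514 counts, and miR-181d-5p ranked 36 with 5241. MiR-181b-5p and miR-181c-5p were lower, at ranks 64 (1554 counts) and 68 (1392 counts). The 4 members together took 1.13 ± 0.0694% of the miRNA counts in normal air libraries and 1.36 ± 0.225% in normal ozone libraries (SD, n = 6 each). On fish oil they took 1.43 ± 0.276% in air (n = 6) and 1.11 ± 0.130% in ozone (n = 5).

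Fish oil was compared with the normal diet in air, in ozone and averaged over both, to ask whether diet changed the family in serum. Averaged over air and ozone, the members of the 2 kinds of cluster moved in opposite directions relative to the other miRNAs. MiR-181c-5p and miR-181d-5p fell about as far as each other, by 1.01 and 0.87 on the log2 scale. MiR-181a-5p and miR-181b-5p rose by 0.51 and 0.48 with TMM scaling, but their sign turned when the libraries were scaled to the authors' larger read total, as given below. A log2 fold change here is fish oil over normal diet, and rose and fell refer to an adjusted p under 0.05.

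MiR-181c-5p (rno-miR-181c-5p), from the c/d cluster, had a level of 1038 to 1776 CPM on the normal diet in air (median 1353, n = 6). In normal diet ozone libraries it was 937 to 2609 CPM (median 1532). On fish oil it was 464 to 1137 CPM in air (median 589) and 769.5, 427, 878, 856 and 1002 CPM in the 5 ozone libraries. Of the 11 fish oil libraries 9 were below every normal diet library, and all 11 were below the normal diet mean; the diets overlapped through fish oil air 1 and fish oil ozone 6. The raw counts were 31 to 163 in the 12 normal diet libraries and 13 to 41 in the 11 on fish oil.

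Averaged over exposures, miR-181c-5p fell by 1.01 on the log2 scale, or 2.01-fold (SE of the log2 value 0.20, edgeR quasi-likelihood test, Benjamini-Hochberg adjusted p = 0.000479). It fell by 0.98 in air (SE 0.28, edgeR adjusted p = 0.0337) and by 1.04 in ozone (SE 0.30, edgeR adjusted p = 0.0108). The call in air was lost without normal air 5 (edgeR adjusted p = 0.0646), or without fish oil air replicates 4 (0.0719), 5 (0.0520) or 6 (0.0865). The call in ozone was lost without fish oil ozone 3 (edgeR adjusted p = 0.0517). The averaged call held in each of the 23 fits that left out 1 library.

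MiR-181d-5p (rno-miR-181d-5p), the cluster partner of miR-181c-5p, was the second most abundant member. Its level was 3950 to 5629 CPM on the normal diet in air (median 4741, n = 6) and 3950 to 8169 CPM in ozone (median 6013, n = 6). On fish oil it was 2215 to 5132 CPM in air (median 3449, n = 6), and 2524, 2104, 3286, 1284 and 2701 CPM in ozone. In ozone the diets did not overlap: the highest fish oil library was below the lowest normal diet library. In air they overlapped through fish oil air 1 and fish oil air 2.

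Averaged over exposures, miR-181d-5p fell by 0.87 on the log2 scale, or 1.83-fold (SE 0.17, edgeR adjusted p = 0.000419). In ozone it fell by 1.32, or 2.50-fold (SE 0.26, edgeR adjusted p = 0.000847), and this call and the averaged one held in each of the 23 fits that left out 1 library. In air its log2 fold change was −0.42 and did not pass (SE 0.24, edgeR adjusted p = 0.217). The difference between the diet effects in ozone and in air was −0.90 (SE 0.34), with an unadjusted p of 0.0138 and an edgeR adjusted p of 0.468, so a dependence of the diet effect on exposure did not pass the test.

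MiR-181a-5p (rno-miR-181a-5p), the most abundant member over all libraries, had a level of 3726 to 5811 CPM on the normal diet in air (median 4898, n = 6) and 3931 to 5762 CPM in ozone (median 5158, n = 6). On fish oil it was 2240 to 9725 CPM in air (median 8184, n = 6), and 8065, 6444, 6483, 7818 and 4219 CPM in ozone. Of the 11 fish oil libraries 9 were above every normal diet library. The lowest value of all 23, 2240 CPM, was also a fish oil library, fish oil air 3, which had the highest TMM factor, 1.44. The raw counts did not show that difference: their group means were 292 (normal air), 311 (normal ozone), 301.5 (fish oil air) and 217 (fish oil ozone). The higher CPM on fish oil therefore came with smaller miRNA totals, 23279 to 53696 on fish oil against 33740 to 94264 on the normal diet.

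With TMM scaling miR-181a-5p rose by 0.51 on the log2 scale averaged over exposures, or 1.43-fold (SE 0.18, edgeR adjusted p = 0.0209). The call was lost without normal air 5 (edgeR adjusted p = 0.0511), normal air 6 (0.0564) or fish oil ozone 1 (0.0651). Its log2 fold change was 0.63 in air (SE 0.24, edgeR adjusted p = 0.102) and 0.39 in ozone (SE 0.25, edgeR adjusted p = 0.253), and neither passed. Without fish oil air 3 the value in air was 0.82 and passed (edgeR adjusted p = 0.0127).

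MiR-181b-5p (rno-miR-181b-5p), which is made beside miR-181a-5p, had a similar course at a lower level. It was 796 to 1534 CPM on the normal diet in air (median 1207, n = 6) and 702 to 1362 CPM in ozone (median 1113, n = 6). On fish oil it was 1147 to 2227 CPM in air (median 1911, n = 6), and 1724, 1085, 1418, 1556 and 1184 CPM in ozone. Of the 11 fish oil libraries 7 were above every normal diet library and 10 were above the normal diet mean, so the diets overlapped.

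MiR-181b-5p rose by 0.48 on the log2 scale with TMM scaling, or 1.40-fold (SE 0.17, edgeR adjusted p = 0.0275). This call was lost in 7 of the 23 fits that left out 1 library. The edgeR adjusted p was 0.0561 without normal air 1, 0.0688 without normal air 5, 0.0729 without normal air 6 and 0.0756 without normal ozone 4. It was 0.0578 without fish oil air 5, 0.0504 without fish oil air 6 and 0.0762 without fish oil ozone 1. Under single exposures its log2 fold change was 0.62 in air (SE 0.24, edgeR adjusted p = 0.102; 0.0430 without fish oil air 3) and 0.35 in ozone (SE 0.25, edgeR adjusted p = 0.325).

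**Figure D1:**
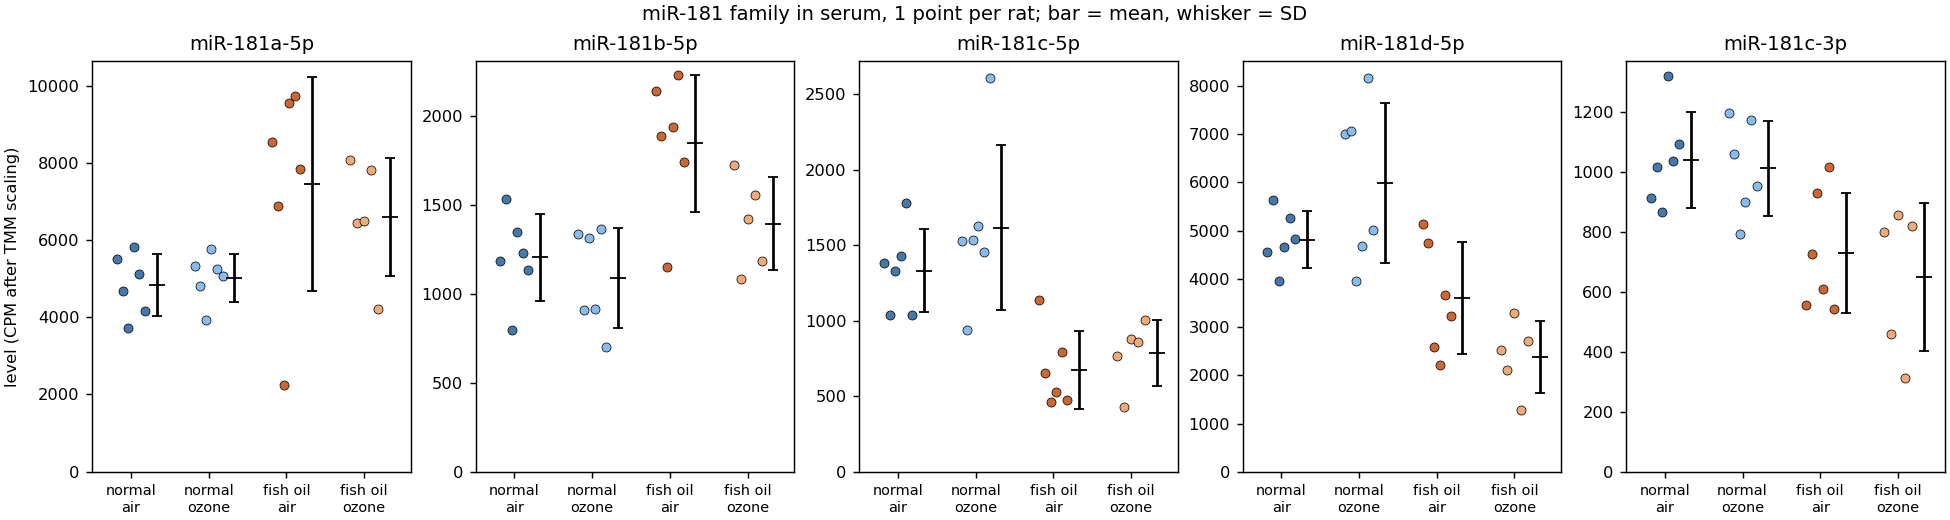
Level of each 5p member and of miR-181c-3p in CPM after TMM scaling (linear axes from 0, a scale per panel), 1 point per rat, with the group mean (bar) and SD (whisker). MiR-181c-5p and miR-181d-5p are lower on fish oil; miR-181a-5p and miR-181b-5p are higher with this scaling and not with the authors' read total, and fish oil air 3 has the lowest miR-181a-5p at 2240 CPM.

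These counts have to be read against all miRNAs tested. Averaged over exposures 19.9% of the 136 miRNAs tested were called higher on fish oil and 16.9% lower, against 2 of the 4 members in each direction. In air 0.735% were called higher and 5.15% lower, against 0 and 1 of the 4 members. In ozone 12.5% were called higher and 10.3% lower, against 0 and 2 of the 4. The median log2 fold change of all 136 was 0.06 averaged over exposures, 0.08 in air and 0.00 in ozone. Overlap of single libraries between diets was counted for the family only, so no share over all miRNAs stands beside it.

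The direction of miR-181a-5p and miR-181b-5p depended on the library size used, and that of miR-181c-5p and miR-181d-5p did not. The authors' RPM values, reads scaled to 1 total per library, imply totals between 2243916 and 7729948 reads, most of which were not counted as miRNA. With that total as library size, the median log2 fold change of all 136 miRNAs moved from 0.06 to −0.87 averaged over exposures, and 51.5% were called lower (27.2% in air and 33.8% in ozone), against 2 of the 4 members in each of the 3 comparisons. MiR-181a-5p then had a log2 fold change of −0.39 (SE 0.27, edgeR adjusted p = 0.225) and miR-181b-5p one of −0.42 (SE 0.30, edgeR adjusted p = 0.227). Both were above the median of all miRNAs under either scaling. A new library size moves a member and the median together, so these are not 2 separate readings. MiR-181c-5p fell by 2.01 (SE 0.35, edgeR adjusted p = 2.62e-05) and miR-181d-5p by 1.75 (SE 0.31, edgeR adjusted p = 3.56e-05), both below that median. Because this library size lowered the median of all 136 as well, values already below 0 with TMM could be foreseen to stay there. The kept sign of miR-181c-5p and miR-181d-5p is therefore no separate support for their fall. In RPM the group means of miR-181c-5p were 17.1 (normal air), 27.6 (normal ozone), 4.77 (fish oil air) and 6.08 (fish oil ozone). Those of miR-181a-5p were 60.3, 78.5, 50.0 and 54.8 RPM in the same order.

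A comparison within each library removes the choice of library size. The fit was therefore repeated with the summed miR-181a-5p and miR-181b-5p counts as the library size, so that it tested the c/d cluster against the a/b clusters directly. MiR-181c-5p fell by 1.44 relative to a plus b averaged over exposures (SE 0.24, edgeR adjusted p = 6.07e-05), by 1.52 in air (SE 0.33, edgeR adjusted p = 0.00372) and by 1.36 in ozone (SE 0.35, edgeR adjusted p = 0.00890). MiR-181d-5p fell by 1.26 averaged over exposures (SE 0.22, edgeR adjusted p = 0.000106). It fell by 0.90 in air (SE 0.30, edgeR adjusted p = 0.0365) and by 1.62 in ozone (SE 0.33, edgeR adjusted p = 0.00259). On this scale 34.6% of all 136 miRNAs were called lower averaged over exposures, 16.2% in air and 9.56% in ozone. The median of all was −0.35 averaged over exposures, so other miRNAs also fell relative to miR-181a-5p and miR-181b-5p.

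**Figure D2:**
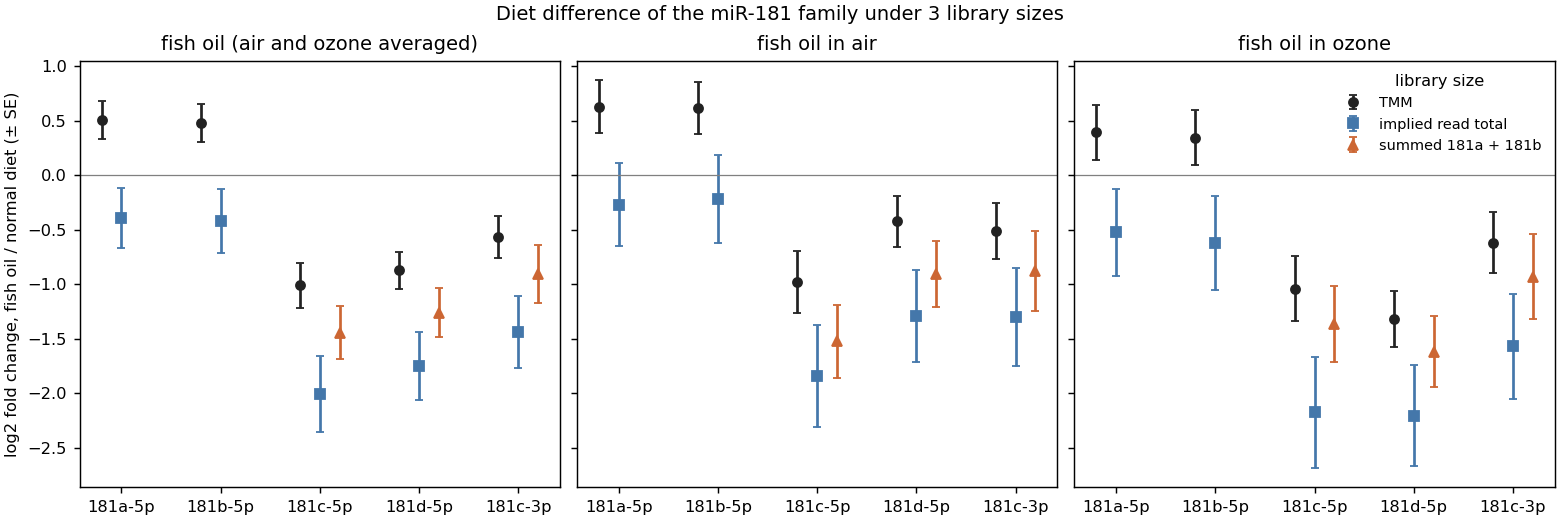
Log2 fold change of fish oil over normal diet (± SE from edgeR) for each member and miR-181c-3p, with TMM (black circles), the implied read total (blue squares) or the summed a and b counts (orange triangles) as library size. The c and d values lie below 0 under each of the 3, and the a and b values lie above 0 with TMM and below 0 with the implied read total.

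The make-up of the family shows the same contrast as shares of the members' own counts. In normal air libraries miR-181c-5p plus miR-181d-5p made up 50.6 ± 3.30% of the 4 members' counts, and in normal ozone libraries 55.1 ± 4.27% (SD, n = 6 for both). On fish oil they made up 32.8 ± 9.99% in air (n = 6) and 28.8 ± 8.72% in ozone (n = 5). The 5 ozone libraries on fish oil had 25.2, 25.2, 34.5, 18.6 and 40.7%, against 48.6 to 59.3% in the 6 on the normal diet. In air the fish oil libraries had 19.3 to 47.5% (median 32.5%), against 45.9 to 53.8% on the normal diet. The diets thus did not overlap in ozone. In air they overlapped through fish oil air 3 alone, whose 47.5% lies among the normal diet values. Whether the diet difference in this share depends on exposure was not tested.

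**Figure D3:**
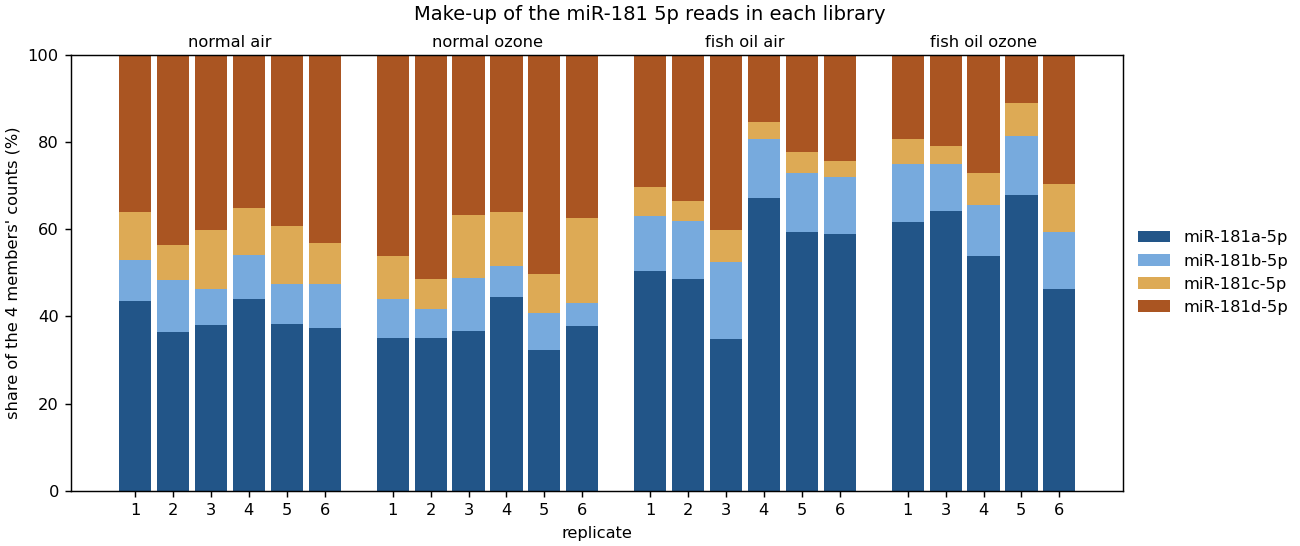
Share of each member in the summed counts of the 4 members (percent, stacked to 100), 1 bar per library, grouped by diet and exposure. The c and d share is 45.9 to 59.3% in the 12 normal diet libraries and 18.6 to 47.5% in the 11 fish oil libraries.

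As a log2 ratio of summed counts (0.5 added to each sum), c plus d to a plus b was 0.04 ± 0.19 in normal air libraries and 0.29 ± 0.25 in normal ozone libraries (SD, n = 6 for both). It was −1.08 ± 0.67 on fish oil in air (n = 6) and −1.34 ± 0.62 in ozone (n = 5). The difference between diets was −1.38 averaged over exposures, against a pooled SD within groups of 0.48, and it stayed between −1.48 and −1.28 when each library was left out in turn. No p is given for this score over the members, and the edgeR p-values of c and d relative to a plus b carry the same limit, since the family was taken up with earlier results known. The fish oil libraries also spread more widely, from −2.12 to −0.15, than the normal diet libraries, from −0.23 to 0.54.

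Averaged over exposures, the ratios between cluster partners differed less between diets than those between members with nearly the same sequence in different clusters. The log2 ratio of miR-181b-5p to miR-181a-5p was −2.12 ± 0.37 on the normal diet (n = 12) and −2.04 ± 0.42 on fish oil (n = 11), a difference well within 1 SD. That of miR-181d-5p to miR-181c-5p was 1.88 ± 0.56 and 2.02 ± 0.64 over both exposures, but the sign of the difference was not the same in air and ozone. In air it was 1.86 ± 0.37 on the normal diet and 2.40 ± 0.32 on fish oil, 0.54 higher, with all 6 fish oil libraries above the normal diet mean. In ozone it was 1.90 ± 0.74 and 1.57 ± 0.63, and on fish oil all 5 ozone libraries were below the mean in air. So d to c was higher on fish oil in air, where the diets still overlapped, and within 1 SD in ozone. These differences of d to c were not tested. Across clusters the ratio of miR-181c-5p to miR-181a-5p was −1.77 ± 0.38 on the normal diet and −3.23 ± 0.68 on fish oil. The ratio of miR-181d-5p to miR-181b-5p, which C12U alone separates, was 2.23 ± 0.41 on the normal diet and 0.83 ± 0.50 on fish oil. All 11 fish oil libraries (−0.27 to 1.32) were below all 12 normal diet libraries (1.59 to 2.94) in this last ratio. The comparison of partners with sequence neighbours is a description and was not tested. How many other miRNA pairs separate the diets as fully was not counted.

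**Figure D4:**
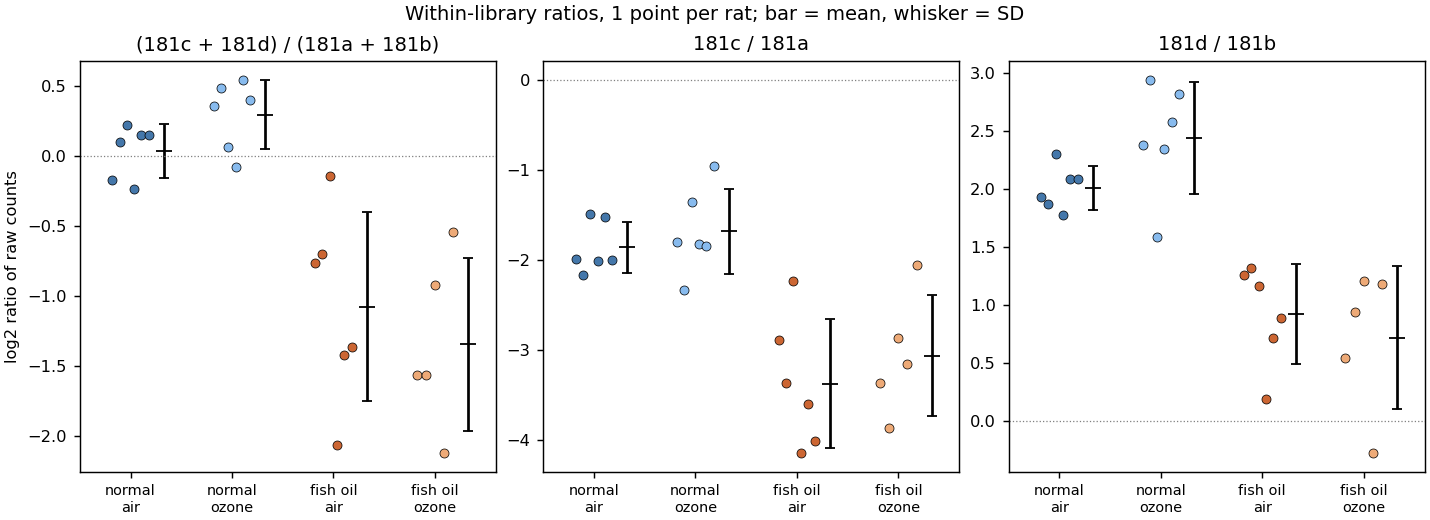
Log2 ratio of raw counts (0.5 added to each count or sum) of c plus d to a plus b, of miR-181c-5p to miR-181a-5p and of miR-181d-5p to miR-181b-5p, 1 point per rat, with the group mean (bar) and SD (whisker). In the ratio of miR-181d-5p to miR-181b-5p the fish oil rats lie between −0.27 and 1.32 and the normal diet rats between 1.59 and 2.94.

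The order of the levels differed by diet; the mature lengths of 22 and 23 bases are nearly equal, so CPM values are compared directly, though capture by ligation can differ between sequences. On the normal diet miR-181d-5p (5398 ± 1335 CPM, n = 12) and miR-181a-5p (4930 ± 688 CPM) did not differ beyond their spread. MiR-181c-5p (1473 ± 438 CPM) was above miR-181b-5p (1146 ± 259 CPM) by less than its own SD. On fish oil the order was miR-181a-5p (7072 ± 2230 CPM, n = 11), miR-181d-5p (3044 ± 1140 CPM), miR-181b-5p (1640 ± 396 CPM) and miR-181c-5p (726 ± 236 CPM). There the mean of miR-181a-5p exceeded that of miR-181d-5p, and the mean of miR-181b-5p that of miR-181c-5p, by more than 1 SD of either. Fish oil air 3 went the other way for a and d, with miR-181d-5p at 2595 CPM and miR-181a-5p at 2240 CPM.

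The other arm of the hairpins was read at length only for the c gene. MiR-181c-3p, at chr19:36267333-36267355 on rn5, is cut from the same precursor as miR-181c-5p and gives a second reading of that gene from a sequence the 5p counts do not share. Its sequence is shown beside the 3p arm of the chromosome 13 a gene, the closest other arm, which shares its seed.
miR-181c-3p: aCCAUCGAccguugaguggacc
miR-181a-1-3p: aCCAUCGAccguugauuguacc

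The first 15 bases of these arms were identical, and they differed by G16U and G19U, with the base of miR-181c-3p first. MiR-181c-3p was 865 to 1318 CPM on the normal diet in air (median 1025, n = 6) and 792 to 1194 CPM in ozone (median 1006, n = 6). On fish oil it was 542 to 1015 CPM in air (median 667, n = 6), and 800.3, 460.3, 855, 311 and 820 CPM in ozone. All 11 fish oil libraries were below the normal diet mean, and 6 were below every normal diet library.

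MiR-181c-3p fell by 0.56 on the log2 scale averaged over exposures, or 1.48-fold (SE 0.19, edgeR adjusted p = 0.0189), a call that was lost without fish oil ozone 5 (edgeR adjusted p = 0.0594). The call was also lost with total counts as library size (−0.42, edgeR adjusted p = 0.118), without the 5 most abundant miRNAs in the library size (−0.46, 0.0672) and without the low-count filter (−0.65, 0.0579). Relative to a plus b it fell by 0.90 averaged over exposures (SE 0.27, edgeR adjusted p = 0.0108), and did not pass in air (0.107) or in ozone (0.105). Its log2 fold change was −0.51 in air (SE 0.26, edgeR adjusted p = 0.176) and −0.62 in ozone (SE 0.28, edgeR adjusted p = 0.104), and neither passed. Both arms of the c gene were thus lower on fish oil, the 3p arm by the smaller value. The log2 ratio of 3p to 5p was −0.48 ± 0.48 on the normal diet and −0.07 ± 0.65 on fish oil over both exposures, within 1 SD. In air it was −0.34 ± 0.36 on the normal diet and 0.14 ± 0.65 on fish oil. There 5 of the 6 fish oil libraries were above every normal diet library, and the other, fish oil air 1 at −1.02, was below every one. In ozone it was −0.62 ± 0.57 on the normal diet and −0.31 ± 0.63 on fish oil. The ratio of the arms was not tested.

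The remaining arms were near the floor. MiR-181a-1-3p had 0.5 to 6 counts per library, some of them fractions. In the RefSeq annotation of GRCr8 the gene of miR-3570 overlaps its gene. Whether reads shared with miR-3570 gave the fractions was not tested. MiR-181a-2-3p had 0 to 4 counts, miR-181b-1-3p had 0 to 2, and miR-181d-3p had 1 count in normal air 1 and 0 elsewhere. MiR-181b-2-3p was at 0 in each library, which allows a level of up to 28.3 to 117 CPM. None of these passed the filter on low counts, and no fold is given.

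Ozone was compared with air on each diet, to ask whether exposure changed the family. None of the 4 members passed in any ozone comparison. On the normal diet the log2 fold changes of ozone over air were 0.06 for miR-181a-5p, −0.14 for miR-181b-5p, 0.29 for miR-181c-5p and 0.31 for miR-181d-5p (SE 0.23 to 0.27; edgeR adjusted p = 0.939 to 0.970). Of all 136 miRNAs 0% were called there, with 4 at an unadjusted p under 0.05. On fish oil the values were −0.18, −0.40, 0.23 and −0.59 in the same order (SE 0.25 to 0.30; edgeR adjusted p = 0.659 to 0.889). For miR-181d-5p the unadjusted p on fish oil was 0.0275. There too 0% of the 136 were called, with 10 at an unadjusted p under 0.05.

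Averaged over diets the ozone values were −0.06, −0.27, 0.26 and −0.14 for a, b, c and d (SE 0.17 to 0.20; edgeR adjusted p = 0.794 to 0.975), beside 0.735% of the 136 called in either direction. In the test of the interaction of diet and exposure 0% were called, with 6 at an unadjusted p under 0.05. Besides miR-181d-5p, given above, the interaction was −0.23 for miR-181a-5p, −0.27 for miR-181b-5p and −0.06 for miR-181c-5p (SE 0.35 to 0.41; edgeR adjusted p = 0.947 to 0.980). The log2 ratio of c plus d to a plus b was 0.26 higher in ozone on the normal diet and 0.27 lower on fish oil. Both were within the pooled SD of 0.48. The SDs of the normal diet groups alone were smaller than their difference, at 0.19 in air and 0.25 in ozone. There 4 of the 6 ozone libraries were above every air library. This shift of the ratio was not tested.

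Among rats within a group, the pair that tracked most closely was a and b. With group means taken out, the log2 CPM (prior count 2) of miR-181a-5p and miR-181b-5p gave Pearson r = 0.59 over 23 rats (permutation p = 0.00895, adjusted p = 0.0537 over 6 pairs). Spearman rho was 0.47 (permutation p = 0.0172, adjusted p = 0.103), and r was 0.38 without the 2 rats farthest from the median. For miR-181c-5p and miR-181d-5p r was 0.17 (permutation p = 0.495, adjusted p = 0.665) and rho was 0.18 (permutation p = 0.450, adjusted p = 0.675), with r = 0.01 without 2 rats. The other 4 pairs had r between 0.13 and 0.30, and no pair passed after adjustment. Values of 1 library share its depth and its scaling factor.

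Outside the family, the tested miRNAs whose log2 CPM over the 23 libraries was most like that of each member were found by Pearson r, as a description. For miR-181a-5p they were miR-143-3p (r = 0.77, and 0.74 with group means taken out), miR-351-5p (0.75 and 0.88) and miR-221-3p (0.74 and 0.68). For miR-181b-5p they were miR-103-3p (0.73 and 0.75), miR-125b-2-3p (0.65 and 0.45) and miR-205 (0.63 and 0.31). For miR-181c-5p they were miR-191a-5p (0.79 and 0.53), miR-151-3p (0.76 and 0.49) and miR-425-5p (0.74 and 0.52). For miR-181d-5p they were miR-191a-5p (0.86 and 0.66), miR-128-3p (0.83 and 0.58) and miR-92a-3p (0.78 and 0.49). The nearest miRNA was thus the same for c and d, while a and b had no neighbour in common among these. The points share library, depth and the diet difference, so the r values over all libraries hold that difference too.

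Lists of miRNAs that mark possible sources were counted beside the 19.9% of all 136 called higher and the 16.9% called lower averaged over exposures. Serum pools RNA from many cells, so fewer releasing cells and less miRNA released per cell cannot be told apart. Of 5 lymphocyte miRNAs tested 1 rose averaged over exposures (miR-29a-3p) and none fell, and the summed level of that list was 6734 to 16554 CPM on the normal diet and 8222 to 23737 CPM on fish oil. Of 6 platelet-borne miRNAs 2 rose (miR-126a-3p and miR-199a-3p) and 2 fell (miR-191a-5p and miR-223-3p). Their summed level was 227711 to 386616 CPM on the normal diet and 103072 to 205987 CPM on fish oil. A sum follows its most abundant members, and miR-191a-5p, at 9517 counts per library on average, fell by 1.54. The median log2 fold change of the platelet list was 0.03, beside 0.06 for all 136 miRNAs. Of 4 erythrocyte miRNAs tested 2 rose (miR-144-3p and miR-144-5p) and none fell. The names miR-486 and miR-486-5p, also on that list, are not among the 753 miRNA names deposited, so no level is known for them. The summed level of the 4 was 10826 to 20424 CPM on the normal diet and 10712 to 24076 CPM on fish oil.

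Of 3 liver miRNAs 1 fell averaged over exposures (miR-192-5p). In air 2 of the 3 fell, beside 5.15% of all 136 called lower there, with a list median of −1.08; in ozone none of the 3 passed, with a median of 0.01. The liver list had a summed level of 47639 to 189607 CPM on the normal diet and 29150 to 161297 CPM on fish oil. The only neural miRNA tested, miR-128-3p, fell, while miR-124-3p and miR-219a-5p were at 0 and miR-9a-5p did not pass the low-count filter. The summed neural level was 31202 to 42034 CPM on the normal diet and 6807 to 25432 CPM on fish oil. That sum is mostly miR-128-3p and is no second reading of the list. The erythrocyte index, the log2 ratio of miR-451-5p to miR-23a-3p, was −2.14 ± 0.56 in normal air, −2.79 ± 1.07 in normal ozone, −1.88 ± 0.64 in fish oil air and −2.19 ± 1.29 in fish oil ozone libraries. The part of these sources, and of the smaller miRNA totals on fish oil, in the values of the family was not tested.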

How the data were processed

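Small RNA libraries (CleanTag kit, 10 ng of RNA from 100 µl of serum, 50 cycles from 1 end, per the labels) came from 23 rats. The authors deposited a table of expected counts per mature locus and a table of RPM, that is reads scaled to 1 total per library; 0 columns of per-sample values matched no sample. The tools were Bowtie 1.0.0, bcl2fastq and Partek on build rn5, per the submitters' processing notes; how multi-mapping reads were treated is not given in the sources used here. Loci of 1 name were summed and rounded. The 136 names that passed edgeR's filterByExpr by group (minimum count 10, minimum total 15) were scaled by TMM and tested over 7 contrasts with the quasi-likelihood test of edgeR 4.0.16 (two-sided, 1 mean per group, R 4.3.3). Benjamini-Hochberg adjustment ran over all 136, with a threshold of 0.05. The script was tested on simulated data. Fish oil comparisons share their libraries with the averaged one, and ozone comparisons do likewise.

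Alternatives used other library sizes, DESeq2 1.42.0, limma 3.58.1 on log2(RPM + 0.5 or 1), no filter, only the groups compared, 1 locus per name and leaving out each library. Animal numbers run in separate blocks per group and pair no rats, so a batch that followed them cannot be told apart from the groups. Correlations used 100000 permutations within groups. Named miRNAs are the members, every other miR-181 name, and the 3 tested miRNAs most like each member; marker lists cover lymphocyte, erythrocyte, platelet, liver and neural miRNAs. Members and lists were chosen with earlier results of these data known.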

Additional observations from a re-analysis of the deposited data

Results flagged for a closer look

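In 36 groups of 5 or 6 libraries, 2 held a library farther from the rest than the 95% limit of Dixon's test allows; chance gives about 1 in 20. Both were in the authors' RPM values of miR-181c-5p. Normal air 3 had 35.8 RPM, with the next library of its group at 16.9. Fish oil ozone 4 had 9.94 RPM, with the next at 5.73. In CPM after TMM scaling the same libraries had 1326 and 878 CPM, inside the range of their groups.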

How the results depend on the processing

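The 36 results were recomputed in 1116 alternatives, of which 1035 were counted as the same. A log2 fold change was the same if it kept direction and side of the threshold. A ratio of c plus d to a plus b, which has no p, was the same if it moved by less than the pooled SD of 0.48. The falls of miR-181c-5p and miR-181d-5p averaged over exposures, and of miR-181d-5p in ozone, held in each of their alternatives. The values below are log2 fold changes, and the causes of the changes were not tested. With the implied read total, and with limma on log2(RPM + 0.5) and log2(RPM + 1), miR-181a-5p turned to −0.39, −0.42 and −0.42 averaged over exposures, −0.27, −0.30 and −0.29 in air and −0.52, −0.55 and −0.54 in ozone. MiR-181b-5p turned to −0.42, −0.35 and −0.34, to −0.21, −0.18 and −0.18, and to −0.62, −0.52 and −0.51. MiR-181d-5p in air passed with these at −1.29, −1.26 and −1.24, and relative to a plus b at −0.90. For ozone over air these settings turned miR-181b-5p on the normal diet to 0.20, 0.12 and 0.12, miR-181a-5p on fish oil to 0.13, 0.093 and 0.093, and, averaged over diets, miR-181a-5p to 0.25, 0.22 and 0.22 and miR-181d-5p to 0.14, 0.067 and 0.072. Without the low-count filter miR-181a-5p (0.41) and miR-181b-5p (0.37) no longer passed averaged over exposures. In air miR-181a-5p passed with total counts (0.79) and without the 5 most abundant miRNAs in the library size (0.72), and miR-181b-5p with these (0.81 and 0.73) and with DESeq2 (0.61); miR-181c-5p did not pass with total counts (−0.80). With 1 locus per name miR-181a-5p in ozone on the normal diet was −0.031. Relative to a plus b the interaction of miR-181c-5p was 0.16. The ratio of miR-181c-5p to miR-181a-5p alone was 0.31 higher in ozone on fish oil, where c plus d to a plus b was 0.27 lower.

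Leaving out 1 library gave 0.42 to 0.61 for miR-181a-5p averaged over exposures and 0.49 to 0.82 in air. It gave 0.39 to 0.53 and 0.48 to 0.72 for miR-181b-5p, −1.24 to −0.89 in air and −1.19 to −0.85 in ozone for miR-181c-5p, and −0.64 to −0.45 for miR-181c-3p averaged over exposures. Near 0 the sign turned for miR-181a-5p in ozone on the normal diet (−0.047 to 0.14) and averaged over diets (−0.15 to 0.0036), and for the interaction of miR-181c-5p (−0.20 to 0.18). No paired analysis was possible because no number pairs rats across groups. Fish oil libraries held 13 to 41 counts of miR-181c-5p and 8 to 41 of miR-181c-3p, which limits the precision of both.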
